A study of Mus musculus with 6 samples.

Results

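Amino acid transport by the endothelium of young mice was followed through 9 transporter genes, chosen by name from the 32285 genes of the count matrices. They are Slc7a5, Slc3a2, Slc7a1, Slc38a5, Slc38a3, Slc38a2, Slc1a4, Slc1a5 and Slc6a6. For each gene, transcripts were counted by molecular barcode (UMI) and summed over the endothelial cells of a library. Levels are given as UMIs per 1000000 endothelial UMIs (CPM). A cell counted as endothelial if it had at least 500 genes, at most 10% mitochondrial UMIs and a UMI of at least 3 of the 6 genes Pecam1, Cldn5, Cdh5, Flt1, Esam and Egfl7. This left 14165 of 18568 cell barcodes. All 9 genes passed the filter on low values in every pair compared, which asked for 20 CPM and 30 UMIs in whichever library was higher. In sums over cells, fewer transcripts per cell and fewer cells of a subtype cannot be told apart, and the subtypes are therefore taken up separately.

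The study examined early vascular changes after endothelial deletion of Pdcd10 (also called Ccm3), a gene whose loss causes cerebral cavernous malformations, and the place of the kinase complex mTORC1 in them. Cells were sorted and profiled by droplet-based capture of transcript 3' ends in 6 libraries, each its own group. WT libraries carried Mfsd2a-CreERT2 alone and KO libraries Mfsd2a-CreERT2 with Pdcd10fl/fl, and both genotypes received tamoxifen at postnatal day (P) 1 and were harvested at P6 or P10. A pair of further KO libraries from P9 received tamoxifen with vehicle or with rapamycin, an inhibitor of mTORC1. When the P9 mice received tamoxifen, how cells were gated and how many mice made up a library is not stated in the sources used here. All 6 groups share the Cre and tamoxifen, and recombination is limited to cells that use the Mfsd2a driver, which is itself a gene of barrier endothelium. With 1 library per group there is no replicate check within a pair, and every 95% interval below covers counting error only.

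Brain capillary endothelium is joined by tight junctions, so amino acids reach the brain through carriers in the endothelial membranes. Slc7a5 encodes LAT1, the exchanger of large neutral amino acids, which reaches the plasma membrane only when paired with the glycoprotein encoded by Slc3a2 (CD98 heavy chain). Slc7a1 carries cationic amino acids such as arginine and lysine. The sodium-coupled Slc38 carriers move glutamine, histidine and small neutral amino acids, Slc1a4 and Slc1a5 exchange alanine, serine, cysteine or glutamine, and Slc6a6 imports taurine.

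Endothelial cells numbered 857 to 3768 per library, with 9883763 to 36629558 endothelial UMIs and a median of 4871 to 11574 UMIs per cell. Pdcd10 measured 104 and 102 CPM in WT at P6 and P10 and 58.4 and 58.2 CPM in KO, with 44.9 CPM under vehicle and 80.6 CPM under rapamycin. The vehicle and rapamycin libraries shared 420 barcodes, of which 4 belonged to endothelial cells in each, whereas other pairs of libraries shared 0 to 13. The P9 libraries used barcodes of another list than the P6 and P10 libraries (0 shared). Ratios and tests therefore set them only against each other, and any level or rank given over all 6 libraries is a description. Exceptions, given among the additional observations, are a fit over all 6 libraries and ratios of the vehicle library to KO at P10. Xist reached 965 CPM in WT at P6 and at most 0.273 CPM elsewhere. The Y-linked Ddx3y was at 53.1 to 80.3 CPM in the P9 and P10 libraries and at 0 UMIs in both P6 libraries. For every gene, the P6 pair therefore differs in Xist as well as in genotype, and these cannot be told apart there. The test over the WT and KO libraries of P6 and P10 includes that pair. Within each genotype the P6 and P10 libraries differ in Ddx3y, and those of WT also in Xist. Age cannot be told apart from this. The labels name retina where the title and design text name brain. The 7 retina markers together gave 0.384 to 1.72 CPM in endothelial cells, with 3 to 6 of them detected per library. They mark retinal cells other than endothelium, so their level in endothelial cells cannot settle which tissue was used. Pericyte markers summed to 242 to 1063 CPM in endothelial cells (1063 (WT) and 1062 CPM (KO) at P6, 1003 (WT) and 521 CPM (KO) at P10, 242 and 439 CPM with vehicle and rapamycin), with 8 of 8 detected. Red cell markers summed to 45.8 to 7253 CPM, highest in WT at P10, and choroid plexus markers to 1766 CPM with rapamycin against at most 33.6 CPM elsewhere. Their part in the results below was not tested, but each pair was recomputed without the clusters led by pericyte, red cell or astrocyte markers. No cluster was led by choroid plexus markers.

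The LAT1 pair was lower in KO at both ages. Slc7a5 (ENSMUSG00000040010, chr8:121881150-121907694 in GRCm38, minus strand) measured 1148 CPM (WT) and 779.6 CPM (KO) at P6, and 1004 CPM (WT) and 583 CPM (KO) at P10. In the P9 mice it measured 97.7 CPM with vehicle and 149 CPM with rapamycin. Both WT libraries thus stood above both KO libraries of P6 and P10. How many of all genes had their libraries set apart in this way, by genotype or by age, was not counted, here or for the genes below. The KO level was 0.679 times the WT level at P6 (interval 0.660 to 0.698) and 0.581 times at P10 (0.568 to 0.594). Over the 4 libraries Slc7a5 fell in KO, with a log2 difference of -0.70 (SE 0.13, adjusted p = 0.0389, edgeR quasi-likelihood test with age and genotype as terms).

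Slc3a2 (ENSMUSG00000010095, chr19:8706882-8723369, minus strand) followed the same order of libraries. It measured 1868 CPM (WT) and 1152 CPM (KO) at P6, 1528 CPM (WT) and 986 CPM (KO) at P10, and 513 CPM with vehicle against 792 CPM with rapamycin at P9. The WT and KO libraries of P6 and P10 did not overlap. The KO level was 0.617 times the WT level at P6 (0.603 to 0.631) and 0.645 times at P10 (0.634 to 0.656), and the gene fell by 0.69 (SE 0.13, adjusted p = 0.0389, same test). The number of Slc3a2 UMIs per Slc7a5 UMI was 1.63 and 1.48 in WT and KO at P6 and 1.52 and 1.69 at P10. In the P9 libraries it was 5.25 with vehicle (5.06 to 5.44) and 5.31 with rapamycin (5.11 to 5.51). The intervals of the P9 pair overlapped. Day, treatment and barcode list all set that pair apart from the other 4 libraries and cannot be told apart.

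Slc7a1 (ENSMUSG00000041313, chr5:148327410-148399904, minus strand) was lower in KO at both ages but narrowly missed the threshold of the test. Its levels were 332 CPM (WT) and 246 CPM (KO) at P6, 330.5 CPM (WT) and 218 CPM (KO) at P10, and 364 CPM with vehicle against 611 CPM with rapamycin. The KO libraries of P6 and P10 lay below both WT libraries, the KO libraries of P9 lay above them, and the rapamycin library held the highest level of the 6. The KO level was 0.740 times the WT level at P6 (0.703 to 0.779) and 0.660 times at P10 (0.636 to 0.684). Its log2 difference was -0.55 (SE 0.11, adjusted p = 0.0528), and the adjusted p was 0.0377 with DESeq2 in place of edgeR.

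The glutamine carriers differed less between the genotypes, and none of the 3 passed the test. Slc38a5 (SNAT5, ENSMUSG00000031170, chrX:8271133-8280179, plus strand), a sodium-coupled glutamine and histidine carrier, measured 1229 CPM (WT) and 1049 CPM (KO) at P6, and 819 CPM (WT) and 755 CPM (KO) at P10. With vehicle it measured 439 CPM and with rapamycin 582 CPM. The levels of Slc38a5 separated the ages more than the genotypes, with Ddx3y also differing between the ages, and Xist in WT. Its log2 difference was -0.20 (SE 0.12, adjusted p = 0.384). Slc38a5 lies on the X chromosome, and Xist was near 0 in every library but WT at P6. Within P10, where it was near 0 in both, the KO level of Slc38a5 was 0.923 times the WT level (0.903 to 0.942).

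Slc38a3 (SNAT3, ENSMUSG00000010064, chr9:107650634-107669530, minus strand), a glutamine carrier of the same family, measured 295 CPM (WT) and 237 CPM (KO) at P6 and 267 CPM (WT) and 237 CPM (KO) at P10. With vehicle it measured 111 CPM and with rapamycin 173 CPM. Its log2 difference was -0.28 (SE 0.11, adjusted p = 0.207).
Slc38a2 (SNAT2, ENSMUSG00000022462, chr15:96687392-96699730, minus strand), a carrier of small neutral amino acids, had different genotype ratios at the 2 ages, and only the P10 interval excluded 1. It measured 522 CPM (WT) and 533 CPM (KO) at P6, a ratio of 1.02 (0.984 to 1.06), and 659 CPM (WT) and 471 CPM (KO) at P10, a ratio of 0.714 (0.696 to 0.732). The P9 levels were 428 CPM with vehicle and 627 CPM with rapamycin. Over both ages the genotypes overlapped, and the log2 difference was -0.26 (SE 0.16, adjusted p = 0.377).

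Of the 2 members of the neutral amino acid exchanger family, Slc1a4 fell in KO and Slc1a5 did not pass the test. Slc1a4 (ASCT1, ENSMUSG00000020142, chr11:20302180-20332713, minus strand), which carries alanine, serine and cysteine, measured 218 CPM (WT) and 136 CPM (KO) at P6 and 102 CPM (WT) and 55.1 CPM (KO) at P10. It measured 72.9 CPM with vehicle and 53.7 CPM with rapamycin. KO lay below WT at each age, but the KO library of P6 lay above the WT library of P10. The KO level was 0.626 times the WT level at P6 (0.586 to 0.669) and 0.542 times at P10 (0.505 to 0.581), and Slc1a4 fell by 0.81 (SE 0.11, adjusted p = 0.0187), the smallest adjusted p of the 9 genes. Slc1a5 (ASCT2, ENSMUSG00000001918, chr7:16781340-16798274, plus strand), a glutamine exchanger, was the least counted, with 330 to 833 UMIs per library. It measured 28.8 CPM (WT) and 38.9 CPM (KO) at P6, 20.6 and 27.3 CPM at P10, and 22.7 and 16.4 CPM with vehicle and rapamycin. KO lay above WT at each age, with ratios of 1.35 (1.16 to 1.57) and 1.33 (1.17 to 1.503), and the log2 difference was 0.39 (SE 0.12, adjusted p = 0.126).

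The taurine carrier Slc6a6 (ENSMUSG00000030096, chr6:91684053-91759066, plus strand) separated the ages. It measured 244 CPM (WT) and 259 CPM (KO) at P6, 403 CPM (WT) and 433 CPM (KO) at P10, and 388 and 326 CPM with vehicle and rapamycin. Both P10 libraries lay above both P6 libraries, which also differ from them in Ddx3y, and the genotypes lay close together at each age. Its log2 difference between genotypes was 0.064 (SE 0.11, adjusted p = 0.773).

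**Figure D1:**
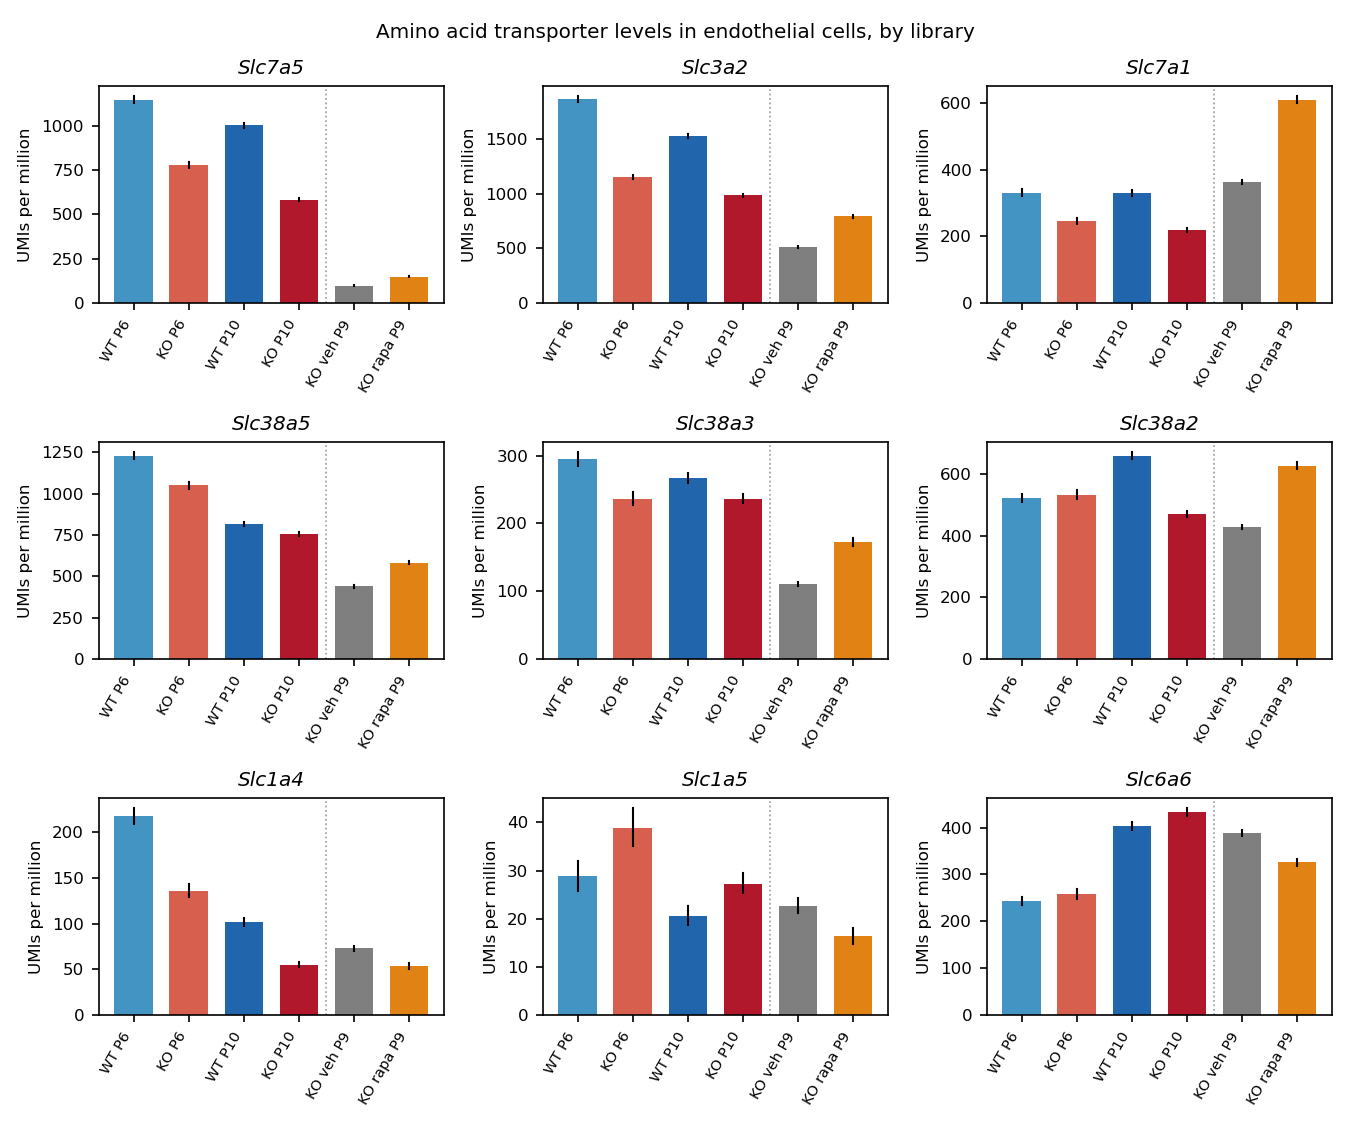
Level of each of the 9 genes in each of the 6 libraries, in UMIs per 1000000 endothelial UMIs, on axes that start at 0. Black lines are exact 95% Poisson intervals, and the dotted line marks off the P9 pair, which used another barcode list. Slc7a5 and Slc3a2 are lower in both KO libraries of P6 and P10 than in either WT library, and Slc6a6 is higher in both P10 libraries than in either P6 library. The share of all genes so placed was not counted.

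In all, 3 of the 9 genes (Slc7a5, Slc3a2 and Slc1a4) fell in KO and 0 rose, against 1.69% and 3.05% of the 13165 genes tested that fell or rose. The median log2 difference was -0.28 over the 9 genes and -0.012 over all genes tested. The fit has 1 residual degree of freedom and uses the ages as its only repeats. Its p-values rest on how far the genotype difference varies between the ages, with variance estimates shared across genes. They measure no spread between libraries of a group, as each group has 1 library, and no separate animals are named. With any of the 4 libraries left out, a fit that keeps the age term has no residual degree of freedom, so such fits used genotype alone and also mix the difference between ages into that between genotypes. In these fits, without WT at P6, KO at P6, WT at P10 or KO at P10 in turn, 0 of the 9 genes passed, as was also so with all 4 libraries and no age term. There Slc7a5 ranged from -0.89 to -0.52, Slc3a2 from -0.82 to -0.57 and Slc1a4 from -1.53 to -0.16. Their adjusted p ranged from 0.447 to 0.904, 0.424 to 0.904 and 0.625 to 0.936, and the numbers of genes called over all genes were 6, 13, 3 and 23. What the left-out library and the missing age term each contribute cannot be told apart in these fits.

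Set pair by pair, lower levels of at least 1.5-fold were found for Slc3a2 and Slc1a4 at P6, which is 2 of 9 genes where 3.50% of all 5835 genes compared were as low. At P10 they were found for Slc7a5, Slc3a2, Slc7a1 and Slc1a4, which is 4 of 9 where 5.74% of 5837 genes were as low. No member was at least 1.5-fold higher in KO at P6 (background 6.41%) or at P10 (8.55%). Dividing cells, those with UMIs of at least 3 of 12 mitotic markers, made up 13.8% and 20.3% of endothelial cells in WT and KO at P6 and 3.95% and 12.2% at P10. Without them, the P6 ratio was 0.675 for Slc3a2 and 0.682 for Slc1a4, and 0 of 9 genes were past 1.5-fold. In the test over 4 libraries, Slc7a5 (-0.63, adjusted p = 0.0636) and Slc3a2 (-0.61, adjusted p = 0.0611) then no longer passed, while Slc1a4 did (-0.75, adjusted p = 0.0260). In capillary-like cells alone, described below, Slc7a5 (-0.48, adjusted p = 0.120) and Slc3a2 (-0.54, adjusted p = 0.0806) also missed the threshold and Slc1a4 passed (-0.61, adjusted p = 0.0344).

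**Figure D2:**
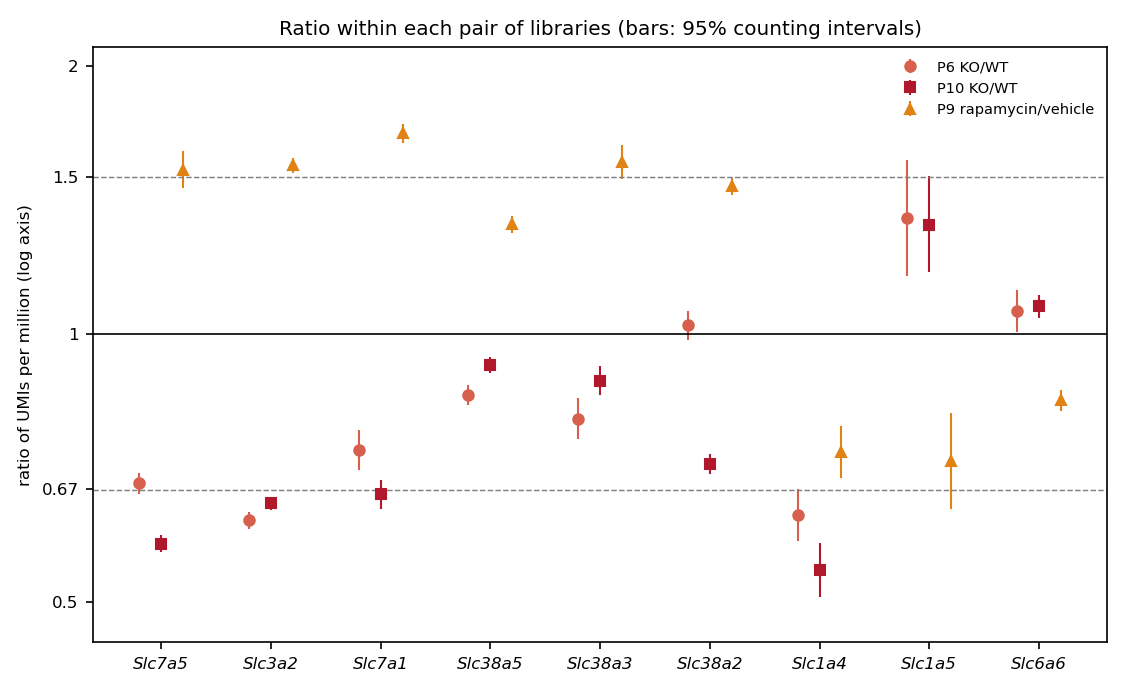
Ratio of levels within each pair of libraries, on a log axis. Circles give KO over WT at P6, squares KO over WT at P10 and triangles rapamycin over vehicle at P9. Lines are exact 95% intervals for counting error, and dashed lines mark a 1.5-fold difference. The first 5 genes lie below 1 in both genotype pairs and above 1 with rapamycin.

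Rapamycin was compared with vehicle in KO mice at P9. The deleted gene Pdcd10 was at 44.9 CPM with vehicle and 80.6 CPM with rapamycin. Its level and the treatment cannot be told apart in any ratio of this pair. Slc7a5, Slc3a2, Slc7a1 and Slc38a3 were at least 1.5-fold higher with rapamycin, which is 4 of 9 where 8.04% of 6197 genes were as high. The ratio was 1.53 for Slc7a5 (1.46 to 1.60), 1.55 for Slc3a2 (1.51 to 1.58), 1.68 for Slc7a1 (1.64 to 1.72) and 1.56 for Slc38a3 (1.49 to 1.63). Slc38a2 at 1.46 (1.43 to 1.498) and Slc38a5 at 1.33 (1.30 to 1.36) were also above 1, short of that fold. Slc1a4 at 0.737 (0.688 to 0.789), Slc1a5 at 0.720 (0.635 to 0.815) and Slc6a6 at 0.841 (0.818 to 0.866) were below 1, and 0 of 9 were at least 1.5-fold lower (background 10.7%). Slc1a4 was thus below 1 in all 3 pairs, whereas Slc7a5 and Slc3a2 were lower in KO than WT and higher with rapamycin than vehicle. Dividing cells were 26.7% of endothelial cells with vehicle and 9.05% with rapamycin. In capillary-like cells alone only Slc3a2 was at least 1.5-fold higher (1.66), and Slc7a5, Slc7a1 and Slc38a3 were at 1.44, 1.39 and 1.37. There Slc1a4 (0.547) and Slc1a5 (0.612) were at least 1.5-fold lower. Without endothelial cells that had UMIs of at least 2 markers of another cell type, choroid plexus included, the ratios were 1.63, 1.64, 1.75 and 1.66 for Slc7a5, Slc3a2, Slc7a1 and Slc38a3. Leaving out barcodes shared between libraries gave 1.53, 1.54, 1.68 and 1.56 for Slc7a5, Slc3a2, Slc7a1 and Slc38a3.

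From P6 to P10, Slc1a4 and Slc6a6 differed the most and in opposite directions in both genotypes. In WT the P10 level of Slc1a4 was 0.466 times the P6 level (0.440 to 0.494) and that of Slc38a5 was 0.666 times (0.651 to 0.681), which is 2 of 9 genes at least 1.5-fold lower (background 8.79%). In KO, Slc1a4 was at 0.404 (0.374 to 0.436) and was the 1 such gene (background 6.24%), with Slc38a5 at 0.720 (0.703 to 0.738). Slc6a6 was the 1 gene at least 1.5-fold higher in both genotypes, at 1.66 in WT (1.59 to 1.73, background 8.56%) and 1.67 in KO (1.60 to 1.75, background 6.53%). The age comparison and the genotype comparison use the same 4 libraries. Differences in Ddx3y, and in Xist for WT, cannot be told apart from age in these ratios.

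The share of endothelial cells with at least 1 UMI was compared after each cell was thinned to 2000 UMIs, which left out 28 to 375 shallower cells per library. Slc7a5 was found in 84.1% of cells in WT at P6 (interval 82.1 to 86.1) and 67.8% in KO (64.5 to 71.0). At P10 it was found in 77.0% (75.5 to 78.5) and 57.1% (55.3 to 59.0). With vehicle 18.5% of cells (17.2 to 19.8) and with rapamycin 29.0% (26.7 to 31.3) had a Slc7a5 UMI. At full depth these shares were 94.6%, 87.5%, 89.8%, 81.2%, 49.8% and 71.7%, in that order of libraries. Slc3a2 was found in 93.3% and 81.8% of thinned cells in WT and KO at P6, 89.3% and 77.4% at P10, and 58.0% and 74.0% with vehicle and rapamycin. Slc1a5, at the other end, was found in 1.92% to 7.12% of cells.

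Between the genotypes, the share was lower in KO with intervals apart for 5 genes at P6 (Slc7a5, Slc3a2, Slc7a1, Slc38a5 and Slc1a4), where 5.74% of all genes compared were so placed. At P10 it was lower for 7 genes, these 5 with Slc38a3 and Slc38a2 (background 14.4%), and higher for Slc6a6 (background 21.2%), which was found in 41.2% of WT and 45.7% of KO cells. At P6 it was higher for 0 genes (background 7.39%). With rapamycin it was higher for 6 genes (background 14.3%) and lower for Slc1a4, Slc1a5 and Slc6a6 (background 20.7%). Cells of the same libraries with at most 1 endothelial marker and at least 3 neuron markers, a class set after seeing the data, served for comparison, although neurons can use some of these carriers too. Thinned to 500 UMIs, 3.51% of 57 such cells in WT at P6 (median 3784 UMIs) had a Slc7a5 UMI, against 43.0% of endothelial cells (median 6962.5 UMIs). In the vehicle library the shares were 0.950% of 421 neuron-marker cells (median 864 UMIs) and 4.59% of endothelial cells (median 7995 UMIs). Such a class of at least 20 cells was present in the P6 and P9 libraries only.

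**Figure D3:**
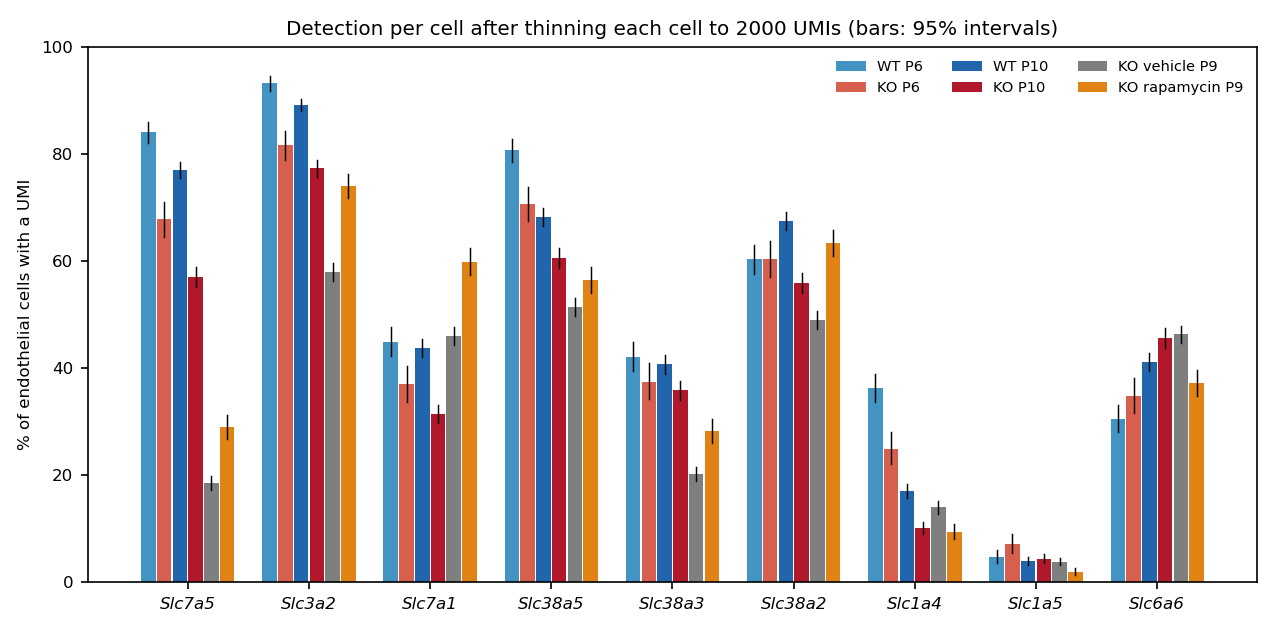
Share of endothelial cells with at least 1 UMI of each gene after thinning every cell to 2000 UMIs, by library. Black lines are exact 95% Clopper-Pearson intervals. Slc7a5 ranges from 18.5% of cells with vehicle to 84.1% in WT at P6.

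Vessel subtypes were set by clustering the endothelial cells with the 9 genes left out and each gene scaled within its library. Clusters are called arterial-like, capillary-like, venous-like, tip-like (angiogenic sprouts) and mitotic-like by their enriched markers, under thresholds set after the clusters were seen. One of the 2 capillary-like clusters was led by Egr2 and Hspa1a, genes of immediate early and heat shock responses, and the venous-like cluster by Cd14, Sele and Ptgs2, genes of the inflammatory response. The subtypes held 44 to 1253 cells per library. The 6 clusters without a name, and 3 led by pericyte, red cell or astrocyte markers, are not described. Those without a name held 23.2% to 33.4% of endothelial cells per library, and the largest had the venous marker Ackr1 among its leading genes. The order of levels was counted over the 6 libraries as a description without a test. The share over all genes was not counted for these orders or for the later counts of subtypes above or below 1.

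Slc7a5, Slc3a2, Slc38a3 and Slc1a4 were highest in capillary-like cells in 6 of 6 libraries. That class was itself named by markers that include the barrier carriers Slc16a1, Slco1a4, Slc22a8 and Mfsd2a. A peak of other barrier carriers there is therefore no independent evidence. No capillary marker was among the leading genes of either capillary-like cluster, and their marker folds over other endothelial cells were 1.72 and 1.57. In capillary-like cells Slc7a5 measured 1641 (WT) and 1380.2 CPM (KO) at P6, 1489 (WT) and 951 CPM (KO) at P10, and 191 and 276 CPM with vehicle and rapamycin. In venous-like cells of the same libraries it measured 726, 347, 329, 262, 49.0 and 94.8 CPM. Slc7a5 was lowest in venous-like cells in 4 libraries, in arterial-like cells in WT at P6 (603 CPM) and in mitotic-like cells with rapamycin (68.5 CPM). Slc7a1 was highest in capillary-like cells in 4 libraries and in arterial-like cells in WT at P6 and with rapamycin.

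Slc6a6 showed the widest spread over subtypes, with arterial-like cells highest and tip-like cells lowest in 6 of 6 libraries. In arterial-like cells it measured 1217 (WT) and 1042 CPM (KO) at P6, 1538 (WT) and 1439 CPM (KO) at P10, and 1458 and 1597 CPM with vehicle and rapamycin. In tip-like cells it measured 39.4, 49.5, 41.0, 60.2, 70.3 and 17.8 CPM in the same order. Arterial-like cells thus exceeded tip-like cells by more than 10-fold in every library. Slc38a5 had the opposite place for arterial-like cells, which were lowest in 6 of 6 libraries at 128 to 495 CPM, while capillary-like cells stood at 707 to 1688 CPM. Slc38a2 was highest in arterial-like cells in 6 of 6 libraries and lowest in mitotic-like cells in 6 of 6, but in WT at P10 arterial-like and capillary-like cells were indistinguishable (890 CPM, 838 to 943, and 888 CPM, 864 to 913). With finer clusters Slc38a2 was highest in arterial-like cells in 3 libraries. Slc1a5 was highest in mitotic-like cells in 5 of 6 libraries, at 27.1 to 60.9 CPM, and in WT at P10 in capillary-like cells (21.5 CPM, against 17.2 CPM in mitotic-like cells).

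**Figure D4:**
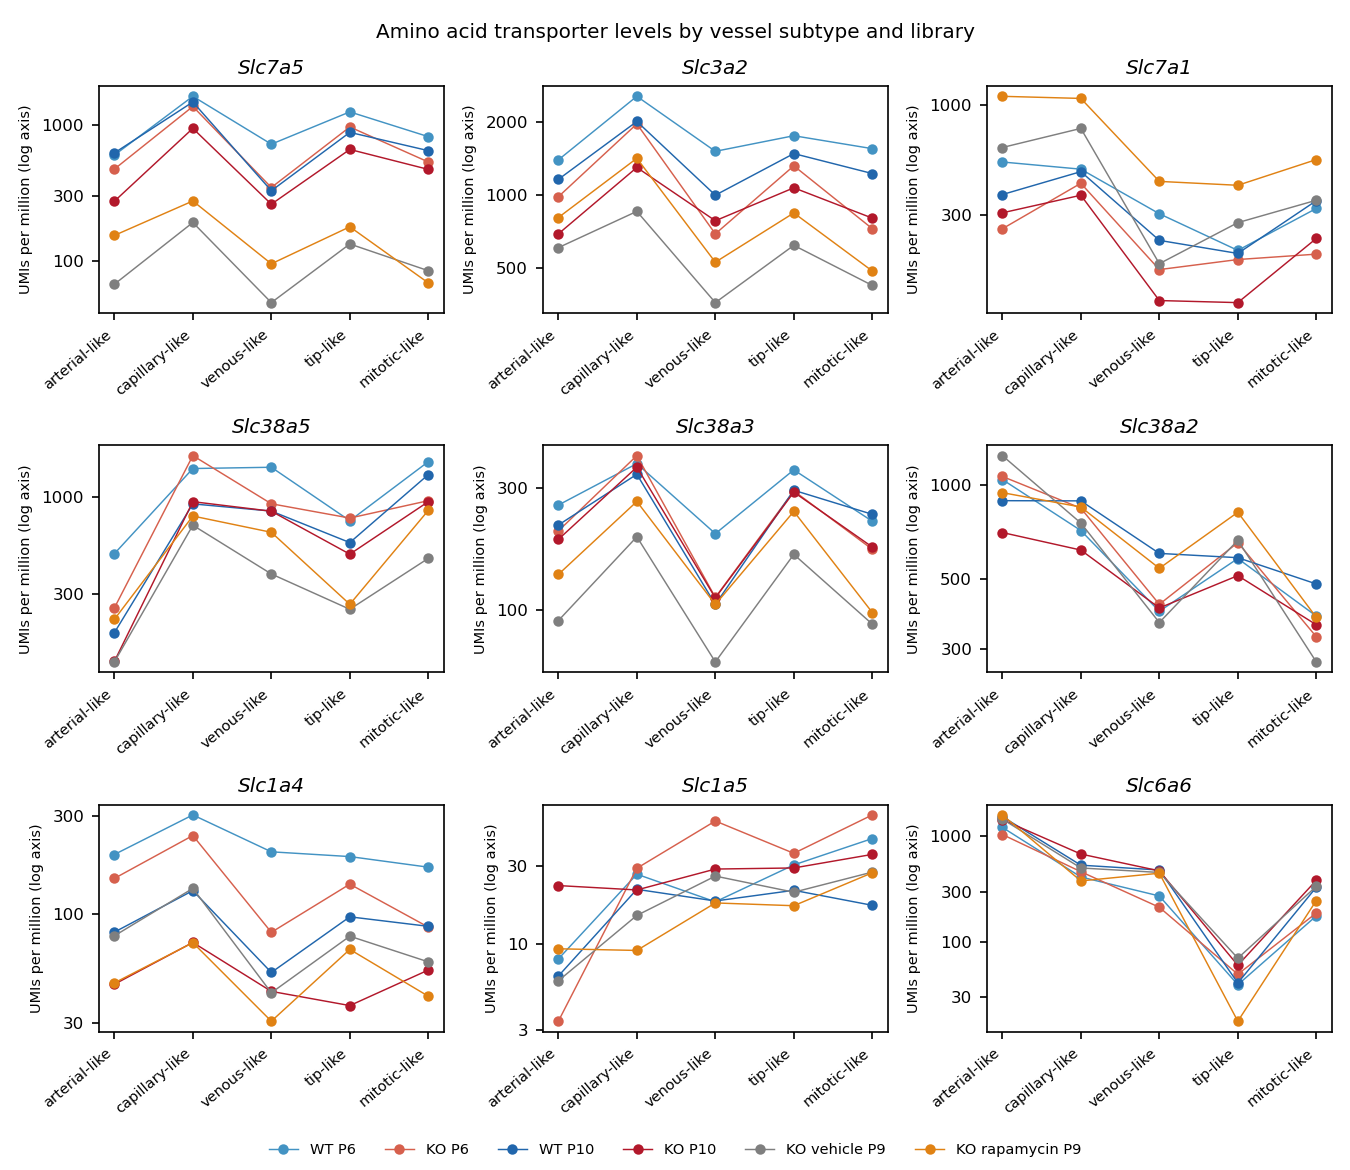
Level of each gene in 5 vessel subtypes, by library, on log axes in UMIs per 1000000 UMIs of that subtype. Points are single libraries, and lines only join points of the same library. Slc7a5, Slc3a2, Slc38a3 and Slc1a4 peak in capillary-like cells in all 6 libraries, and Slc6a6 peaks in arterial-like cells and is lowest in tip-like cells.

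Fenestrated-like cells, marked by Plvap (the diaphragm protein of leaky vessels), could be measured in 55 cells of KO at P10 and 34 cells with rapamycin. Slc7a5 had 2 UMIs in each, or 9.84 CPM (1.19 to 35.5) and 7.67 CPM (0.929 to 27.7). Slc38a5 had 8 UMIs (39.4 CPM) and 0 UMIs, the latter allowing up to 14.2 CPM, and Slc1a4 had 1 UMI and 0 UMIs. Slc3a2 measured 266 CPM (199.5 to 347) and 284 CPM (223 to 356), and Slc6a6 measured 408 and 549 CPM. In these few cells the heavy chain was therefore counted with 54 and 74 UMIs where its partner Slc7a5 had 2.

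Within subtypes, the genotype difference of the LAT1 pair was present in each of the 5. The KO over WT ratio of Slc7a5 was below 1, interval included, in 5 of 5 subtypes at P6 (0.478 to 0.841) and at P10 (0.439 to 0.796). That of Slc3a2 was likewise below 1 in 5 of 5 at P6 (0.456 to 0.769) and at P10 (0.595 to 0.784). Slc7a1 and Slc1a4 were below 1 in 5 of 5 at both ages, with 1 interval reaching past 1 for Slc7a1 at P6 and 1 at each age for Slc1a4. The size of the Slc7a5 difference at P6 was smallest in capillary-like cells (0.841, 0.799 to 0.886) and largest in venous-like cells (0.478, 0.420 to 0.544). At P10 it was largest in arterial-like cells (0.439, 0.388 to 0.498). Differences between subtypes in these ratios were not tested, and how many of all genes were below 1 in 5 of 5 subtypes was not counted.

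Slc38a5 and Slc38a3 were not below 1 in every subtype. In capillary-like cells the KO over WT ratio of Slc38a5 was 1.18 (1.12 to 1.24) at P6 and 1.03 (0.987 to 1.07) at P10, and in mitotic-like cells it was 0.614 (0.580 to 0.649) and 0.713 (0.671 to 0.757). For Slc38a3 the capillary-like ratio was 1.07 at both ages (0.970 to 1.19 at P6 and 0.997 to 1.14 at P10). Slc38a2 was below 1 in 5 of 5 subtypes at P10 (0.671 to 0.877) and in 1 of 5 at P6. The genes that name the capillary-like clusters include Slc22a8, which fell in KO, and Mfsd2a, which was at -1.03 (SE 0.28, adjusted p = 0.0971), and their part in which cells enter that class was not tested.

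With rapamycin, Slc3a2 (1.15 to 1.66) and Slc7a1 (1.39 to 2.46) were above 1 in 5 of 5 subtypes and Slc1a4 was below 1 in 5 of 5 (0.547 to 0.864). Slc7a5 was above 1 in 4 of 5, from 1.34 in tip-like to 2.30 in arterial-like cells (1.65 to 3.22), and was 0.813 (0.692 to 0.951) in mitotic-like cells. Slc38a2 was above 1 in 4 of 5 and 0.763 (0.692 to 0.840) in arterial-like cells. Slc6a6 had its lowest ratio in tip-like cells, at 0.253 (0.201 to 0.317), and was at 1.10 (1.01 to 1.19) in arterial-like cells. Of the 2 tip-like clusters, the larger held 202 of 395 tip-like cells with vehicle and 147 of 320 with rapamycin, against 190 of 221 in WT and 68 of 100 in KO at P6 and 331 of 411 and 325 of 456 at P10.

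**Figure D5:**
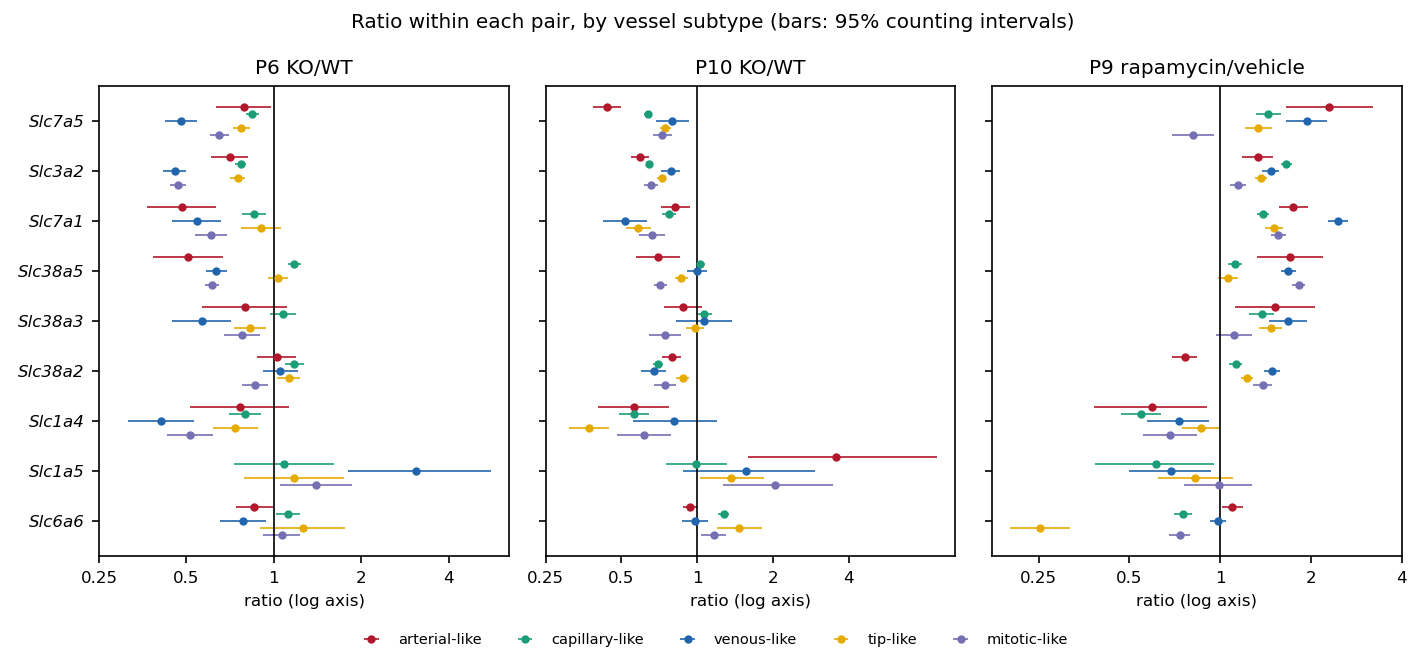
Ratio of levels within each pair by vessel subtype, on log axes. Points are ratios and lines exact 95% intervals for counting error. No point is drawn for Slc1a5 in arterial-like cells at P6 and P9, where neither library had 30 UMIs. Slc7a5 and Slc3a2 lie below 1 in all 5 subtypes in both genotype pairs, and Slc7a5 lies above 1 with rapamycin in all but mitotic-like cells.

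Promoters were examined because 3 of the genes fell together in KO. RefSeq promoter windows (GRCm38.p6, 250 bases before to 50 after a transcript start) were matched for 5 of the 9 genes, Slc3a2, Slc7a1, Slc38a5, Slc38a2 and Slc1a4, in 6 windows. Slc7a5, Slc38a3, Slc1a5 and Slc6a6 were not matched. The motifs searched on both strands were TGATGNAA, the composite element of ATF4 (the transcription factor of the amino acid response) and C/EBP factors, CTTTGAT, bound by the TCF and LEF factors of Wnt signalling, and the E-box CACGTG. They occur in 3.97%, 3.73% and 7.15% of all 32851 windows. Of the 6 windows, 3 had a match and are shown for that reason, with the match in capitals, and the windows of Slc3a2, Slc38a2 and the other start of Slc7a1 had none. The Slc1a4 match, on the minus strand of the sequence shown, begins 4 bases before the start (chr11:20332710-20332963, minus strand, upstream of the gene with its last 4 bases in the first exon).
Slc1a4: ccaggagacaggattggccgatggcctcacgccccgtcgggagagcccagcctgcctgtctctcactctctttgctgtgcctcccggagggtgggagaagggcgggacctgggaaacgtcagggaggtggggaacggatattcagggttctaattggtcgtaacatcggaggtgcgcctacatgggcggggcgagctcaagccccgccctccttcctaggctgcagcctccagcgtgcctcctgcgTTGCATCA
The Slc7a1 match belongs to the window of an internal start and begins 48 bases before it (chr5:148392816-148393065, minus strand, inside the gene and wholly within annotated exon sequence).
Slc7a1: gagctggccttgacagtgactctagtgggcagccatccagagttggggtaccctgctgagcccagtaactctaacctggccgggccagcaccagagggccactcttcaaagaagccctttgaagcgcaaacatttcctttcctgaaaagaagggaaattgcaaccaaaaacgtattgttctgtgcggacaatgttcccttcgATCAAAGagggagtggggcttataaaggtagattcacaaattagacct
The Slc38a5 E-box begins 30 bases before its start, and the 120 bases nearest that start are shown (chrX:8271261-8271380, plus strand, inside the gene span and outside annotated exons).
Slc38a5: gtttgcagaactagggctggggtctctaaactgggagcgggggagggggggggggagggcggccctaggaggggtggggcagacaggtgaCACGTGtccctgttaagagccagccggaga
A match describes these letters alone. Of these 3 genes, 1 fell in KO (Slc1a4), and Slc3a2, which also fell, had no match in its window.

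Other amino acid transporters were counted from a list of 31, of which 24 were tested. Of these, 2 fell in KO and 0 rose, against 1.69% and 3.05% of all 13165 genes tested, with a median log2 difference of -0.070. Slc7a8 (LAT2, the other light chain of the LAT family that pairs with Slc3a2) measured 47.1 (WT) and 24.3 CPM (KO) at P6 and 51.2 (WT) and 15.7 CPM (KO) at P10. It measured 12.7 CPM with vehicle and 24.6 CPM with rapamycin. Slc7a8 fell by 1.38 (SE 0.19, adjusted p = 0.0189), and within each pair the lower library was the same as for Slc7a5. Slc43a2 (LAT4, a facilitative carrier of branched-chain amino acids) stood at 48.9 CPM (WT) against 34.6 CPM (KO) in the younger mice and at 41.8 against 27.1 CPM in the older. It stood at 45.3 CPM with vehicle and 64.4 CPM with rapamycin. Its fall of 0.60 in KO passed the test (SE 0.12, adjusted p = 0.0428).

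Genes of the ATF4 amino acid response, which is known to induce several of the 9 carriers when amino acids are short, were counted from a list of 25 with 24 tested. Of these, 7 rose in KO and 0 fell, against 3.05% and 1.69% of all 13165 genes tested, with a median log2 difference of 0.35. Those that rose were Phgdh, the first enzyme of serine synthesis (1.35, SE 0.17, adjusted p = 0.0152), Cebpb (1.27, SE 0.17, adjusted p = 0.0168), Asns, which makes asparagine (0.94, SE 0.13, adjusted p = 0.0205), Gars, a tRNA synthetase (0.67, SE 0.11, adjusted p = 0.0270), Eif4ebp1, Aldh18a1 and Sesn2. Atf4 mRNA itself, singled out after its values were seen, was at -0.064 (adjusted p = 0.780). In the same libraries Slc7a5, Slc3a2 and Slc1a4 fell, and Slc38a2 and Slc7a1 did not pass the test. With rapamycin Phgdh was at 0.347 times its vehicle level (7.59 and 21.9 CPM), and Asns at 0.674 times (15.1 and 22.4 CPM). Gars, Eif4ebp1, Aldh18a1 and Sesn2 were at 0.574, 0.724, 0.559 and 0.538 times. Of the listed genes that rose in KO, Cebpb alone was above its vehicle level, at 3.36 times (117 and 34.7 CPM).

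Carriers of the barrier for other substrates were counted from a list of 17, all tested. Of these, 4 fell in KO and 0 rose, against 1.69% and 3.05% of all 13165 genes tested, with a median of -0.40. Those that fell included Slc22a8, an organic anion carrier (-0.91, SE 0.15, adjusted p = 0.0314), Abcc4, an efflux pump (-0.88, SE 0.15, adjusted p = 0.0342), and the zinc carrier Slc39a10 (-0.55, SE 0.10, adjusted p = 0.0410). Slc16a1, Slco1a4, Slc22a8, Mfsd2a and Tfrc of this list also served as markers of capillary-like cells. The 3 lists were chosen with earlier results of these data known, so their directions are no independent evidence.

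The genes whose levels were most like those of each member over the 6 libraries were ranked by Pearson's r of log2 CPM among 4341 genes (4342 for Slc1a5), as a description over 6 points that include the gap between the P9 pair and the rest. For Slc7a5 they were Itm2b (r = 0.997), Pgrmc1 (0.996) and Pja1 (0.996), and for Slc3a2 Casp6 (0.997), Tdp2 (0.993) and Bckdha (0.993). For Slc7a1 the nearest was Git2 (0.998), for Slc38a5 Sgce (0.993), for Slc38a3 Tmem59 (0.999) and for Slc38a2 the immediate early gene Egr1 (0.980). For Slc1a4 it was Mapre2 (0.971), for Slc1a5 Ccdc115 (0.998) and for Slc6a6 Dctn1 (0.960).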

How the data were processed

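The deposited matrices hold UMI counts per gene and cell barcode, whole numbers that the authors made with Cell Ranger 6.0.1 against mm10, per the submitters' processing notes. All 6 matrices were used. Library totals ranged from 10807651 to 40197132 UMIs. The 9 genes, the gene lists and the tests were chosen with earlier results of these data known. Named genes are the 9 members, up to 8 per list (those past the threshold first, by adjusted p) and the genes most like each member. One gene of the barrier list is counted but not reported here by name.

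Counts were summed over endothelial cells per library and tested with edgeR 4.0.16 in R 4.3.3 (TMM, filterByExpr, quasi-likelihood fit with age and genotype, Benjamini-Hochberg adjustment over all genes tested at 0.05). The SE given with a log2 difference is the size of that difference divided by the square root of its quasi-likelihood F statistic. DESeq2 1.42.0 was an alternative. The procedure was tested on simulated data. Pair ratios carry exact conditional binomial intervals and levels exact Poisson intervals, at 95%. Log2 CPM used a prior count of 2. Clusters came from scanpy 1.11.5 and leidenalg 0.10.2 (2000 variable genes, 30 principal components, 15 neighbours, resolution 1). A cluster was named with at least 3 markers enriched and a marker fold of at least 1.5. No doublet caller was run; cells with at least 2 markers of another cell type, or in clusters led by one, were left out in alternatives. Gene positions are from GENCODE vM21, in which 32235 of 32285 identifiers matched.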

Additional observations from a re-analysis of the deposited data

Results flagged for a closer look

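Slc38a2 was set apart because its ratios lie on opposite sides of 1 in 2 groups under the same contrast. Its KO over WT ratio was 1.02 at P6 and 0.714 at P10. Read the other way, its P10 over P6 ratio was 1.26 in WT and 0.882 in KO. Both readings use the same 4 libraries, each group is 1 library, and the difference between the ratios was not tested.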

How the results depend on the processing

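The number of the 9 genes called lower in KO by edgeR (3) was 0 without the age term and 0 with all 6 libraries, and leaving out each library in turn, which also dropped the age term because no residual degree of freedom would be left with it, gave 0 to 0. It was 1 without dividing cells, 1 in capillary-like cells only and 1 without interferon-like and fenestrated-like cells, the latter chosen after seeing the data; Slc1a4 was the 1 in each. Genes called over all genes (624) numbered 2010 with no filter on low counts, 1 without the age term, 0 with all 6 libraries (987 at an unadjusted p under 0.05), 1210 with stricter cell filters and 316 without interferon-like and fenestrated-like cells. Leaving out each library, again with no age term, gave 3 to 23. Genes at least 1.5-fold lower in KO at P6 (2) numbered 0 without dividing cells, 0 in capillary-like cells and 1 with each cell counted equally. With rapamycin, those higher (4) numbered 1 in capillary-like cells and 2 with cells counted equally, and those lower (0) numbered 2 and 1. Genes highest in arterial-like cells in at least 5 libraries (2) numbered 0 with subtypes set per cell, where only 4 libraries had 20 arterial-like cells, and 1 with finer clusters. Of the counts by share of cells, P6 lower (5) was 3 when thinned to 1000 UMIs. Without thinning, P6 higher (0) was 2, P10 higher (1) was 2 and rapamycin lower (3) was 1. The log2 difference of Slc38a5 turned to 0.10 in capillary-like cells and, leaving out each library with no age term, ranged from -0.46 to 0.082 (without WT at P6). That of Slc38a3 turned to 0.065 in capillary-like cells. Slc6a6 ranged from -0.38 (without KO at P10) to 0.50 in the same fits, with -0.27 without WT at P6, and was -0.035 without cells with 2 markers of another cell type. None of these reversed values passed the test, and those with a library left out compare genotypes at unmatched ages. Of 153 single log2 differences under alternatives, 117 kept direction and outcome of the test, 24 no longer passed, 6 newly passed (all Slc7a1) and 6 reversed. The 153 include the 6 genes that had not passed, for which staying so counts as kept. All 24 that no longer passed belong to the 3 genes called, Slc7a5, Slc3a2 and Slc1a4, so the 117 do not measure how firm those calls are. Slc7a5, Slc3a2, Slc7a1 and Slc1a4 kept their side of 1 in all 3 pairs under all 10 alternatives to the pair ratios. No paired analysis was possible because each group has 1 library, and its replicate number, 1 in every group, only names it. Depth limits Slc1a5 most, and fenestrated-like cells rest on 1 to 143 UMIs per gene where any were found. The cause of these shifts was not tested.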

Other observations

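Slc7a5 differed more between the P9 vehicle library and the KO library of P10 than the other 8 genes did. It measured 97.7 CPM against 583 CPM, a ratio of 0.167, and 32 of 6326 genes (0.506%) had a ratio as low. Slc3a2 stood at 0.520 and Slc38a3 at 0.468, while Slc7a1 stood at 1.67 and Slc1a4 at 1.32. The libraries differ in day, treatment and barcode list, which cannot be told apart here.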
